A study of Mus musculus with 6 samples.

Results

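Receptors for acetylcholine, serotonin, dopamine and noradrenaline were examined across the cell types of the adult mouse olfactory bulb. They were taken as every gene of the count table whose symbol is Chrm, Chrna, Chrnb, Htr, Drd, Adra or Adrb followed by a digit, which gave 37 of 18560 genes: 4 muscarinic receptors (Chrm), 7 genes with a Chrna symbol, 4 nicotinic beta subunits (Chrnb), 11 serotonin receptors (Htr), 3 dopamine receptors (Drd), 5 alpha-adrenergic receptors (Adra) and 3 beta-adrenergic receptors (Adrb). The gene Chrna1os is in this list by its symbol only, since it is an opposite-strand transcript and not a receptor subunit. Other genes of these families were not analysed here.

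The study profiled dissociated olfactory bulbs of C57BL/6NJ mice in droplets and counted each transcript molecule by its unique molecular identifier (UMI). There were 6 libraries, each made from 3 pooled mice at 14 weeks of age, and in every condition library 1 came from males and library 2 from females. Control libraries came from mice whose label gives no manipulation, naris-occluded libraries from bulbs deprived of odor input by closing a nostril for 6 weeks, and olfactory trained libraries from water-deprived mice that learned to discriminate odors over the same time. The study's text also describes the open side of occluded mice as the control, and the labels were followed here. A total of 51426 cells carried a cluster, and 21746 neurons carried a second, finer annotation with 18 clusters (n01 to n18). The libraries held 6705 to 10570 cells and 11841160 to 17065083 UMIs, and 2718 to 3407 of these UMIs were of the 37 genes, or 188 to 230 CPM (UMIs of the genes per 1e6 UMIs of the library). In all, 1461 of 49931 distinct cell barcodes occurred in more than 1 library. Of 52 marker genes of cell types, 48 were highest in a cluster of their own type. Deposited cluster names were used, and some of them, such as those of the microglial and ensheathing clusters, differ in number from the names in the study's text.

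Acetylcholine, serotonin and noradrenaline reach the olfactory bulb mainly in fibers from the basal forebrain, the raphe nuclei and the locus coeruleus, whereas dopamine is made by a class of periglomerular interneurons within the bulb itself. Muscarinic, dopamine, adrenergic and most serotonin receptors act through G proteins, and nicotinic receptors and the serotonin receptor subunit Htr3a form ion channels that open when the transmitter binds. These transmitters are known to tune odor processing, arousal and learning, in part through the inhibitory granule and periglomerular cells that continue to be added to the bulb in adult life.

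The nicotinic subunit genes Chrna3 and Chrnb4, whose proteins assemble with each other into channels, are next to each other on chromosome 9, and both were led by the mitral and tufted cluster n17-M/TC-3. The serotonin receptor gene Htr1f, on chromosome 16, held the highest neuronal level of the 37 genes. Their promoter sequences are shown for these reasons, as the 250 bases before the annotated start on the transcribed strand, with GC boxes in capitals (GGGCGG, or CCGCCC for a box on the other strand). Sequences and positions are from RefSeq on GRCm38.p6, whose chromosomes are those of the mm10 build used for the counts. The Chrna3 stretch is chr9:55026563-55026812 on the minus strand, with 1 box that begins 13 bases before the start. The Chrnb4 stretch is chr9:55048545-55048794 and the Htr1f stretch chr16:65105785-65106034, both on the minus strand and both without these letters, and the Chrnb4 start is one inside the annotated gene. A GC box was found in 32.7% of the 32851 promoters in the table and in 20 of the 34 promoters listed for 29 of the 37 genes.
Chrna3: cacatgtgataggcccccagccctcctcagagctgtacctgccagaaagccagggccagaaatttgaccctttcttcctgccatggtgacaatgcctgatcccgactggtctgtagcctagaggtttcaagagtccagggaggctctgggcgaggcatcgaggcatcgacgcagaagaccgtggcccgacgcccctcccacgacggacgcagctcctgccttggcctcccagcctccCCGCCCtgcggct
Chrnb4: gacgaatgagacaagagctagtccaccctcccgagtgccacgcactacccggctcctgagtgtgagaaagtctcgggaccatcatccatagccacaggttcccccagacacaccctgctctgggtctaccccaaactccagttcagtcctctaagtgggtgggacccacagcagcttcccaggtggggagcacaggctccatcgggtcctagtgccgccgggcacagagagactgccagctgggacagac
Htr1f: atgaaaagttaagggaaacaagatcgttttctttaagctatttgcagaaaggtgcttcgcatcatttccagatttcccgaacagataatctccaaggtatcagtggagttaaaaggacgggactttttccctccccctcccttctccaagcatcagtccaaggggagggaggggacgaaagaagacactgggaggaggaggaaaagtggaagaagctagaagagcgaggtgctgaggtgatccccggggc

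All 37 genes had at least 1 UMI, but the counts were uneven. Htr1f had 3756 UMIs, Chrm2 1772 and Chrm1 1351, whereas 11 genes had fewer than 50 UMIs in all cells together. For each cluster, counts were summed over its cells in each library and divided by all UMIs of those cells, and the level of a gene is the mean CPM of the 6 libraries with its standard deviation (SD). Neuronal clusters are those of the second annotation. Levels were read where the cluster had at least 50 cells and at least 10 UMIs of the gene. By this measure 22 genes reached 10 CPM in a neuronal cluster and 16 in a nonneuronal cluster, against 61.7% and 70.9% of all 18560 genes. Both kinds of cluster were reached by 10 genes, neuronal clusters alone by 12, nonneuronal clusters alone by 6 and neither by 9. These counts hold for the second annotation. In the whole-bulb neuronal clusters, Adrb1 and Chrna4, which are among the 6, also reached 10 CPM in N14. Htr2c did so in N14 as well, and Htr1a and Chrna2 did so in N12. The clusters were made from the same counts, so differences in level between clusters are given as a description with no test. In 2 of the 22 genes, Htr1f and Chrna2, the leading neuronal cluster was above every other neuronal cluster in each of the 6 libraries.

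**Figure D1:**
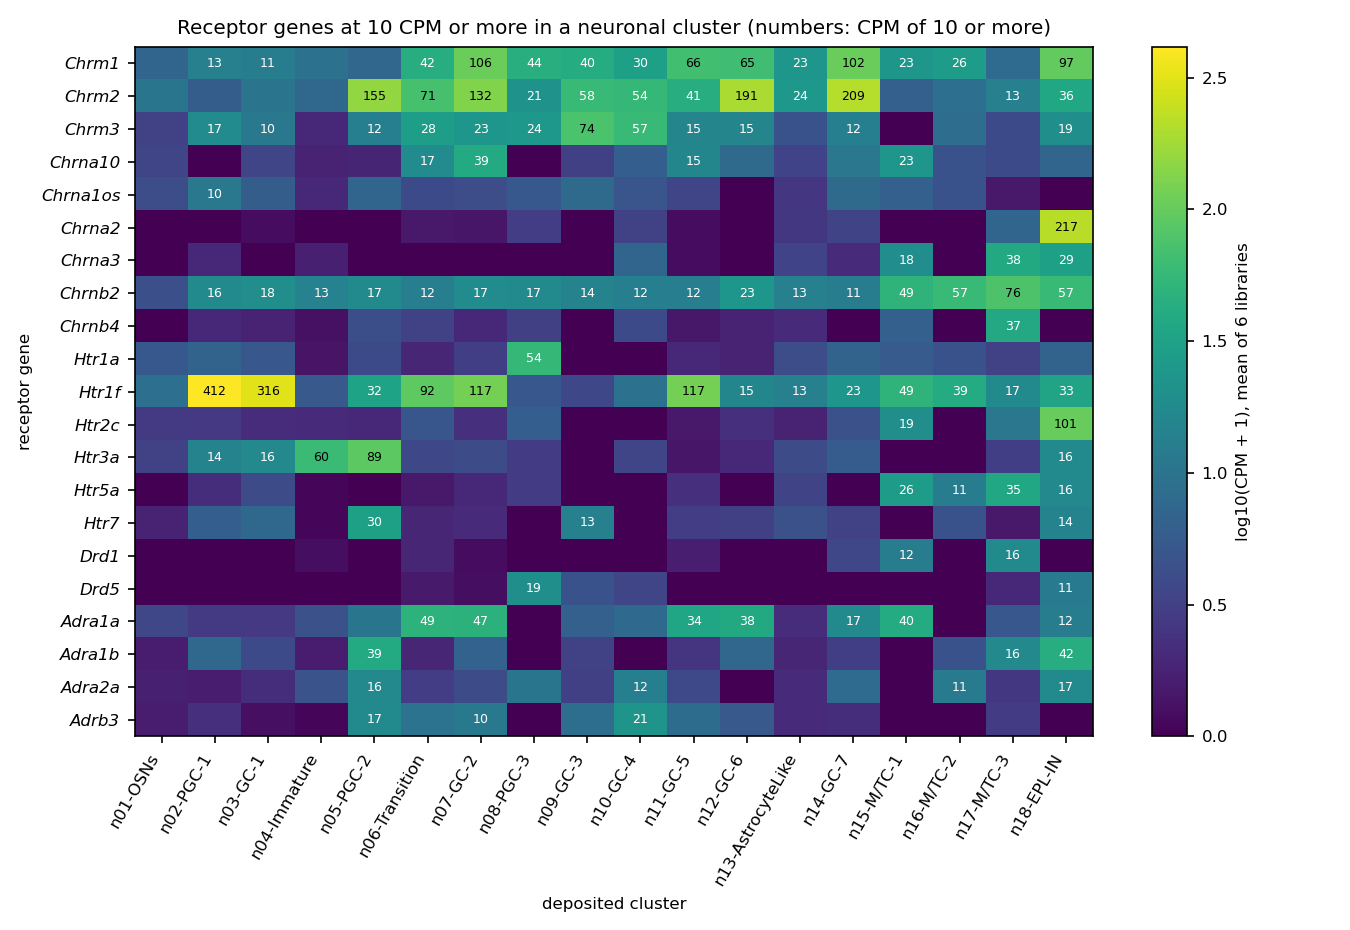
Mean level over the 6 libraries of 21 receptor genes that reached 10 CPM in a neuronal cluster (rows) in each of the 18 neuronal clusters (columns), with color on the scale log10(CPM + 1) and levels of 10 CPM or more printed, also where fewer than 10 UMIs lie behind them. Htr1f was highest in n02-PGC-1 and n03-GC-1, and the muscarinic genes Chrm1 and Chrm2 in granule cell clusters.

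Among serotonin receptors, Htr1f had the highest neuronal level. Htr1f, which couples to inhibitory G proteins, had 418 and 473 CPM in control, 389 and 389.9 in naris-occluded and 411 and 393 in olfactory trained libraries in n02-PGC-1, a cluster of calretinin (Calb2) expressing periglomerular cells. In the granule cell cluster n03-GC-1 its CPM was 282 and 354 in control, 308 and 348 in naris-occluded and 337 and 268 in olfactory trained libraries. All 6 libraries had a higher Htr1f level in n02-PGC-1 (412 ± 31.8, SD, n = 6 libraries) than in n03-GC-1 (316 ± 35.8), and every other neuronal cluster was far below both. The clusters next in order for Htr1f were n07-GC-2 at 117 ± 16.8 CPM, then n11-GC-5 at 117 ± 11.2 CPM and n06-Transition at 91.6 ± 22.8 CPM, which did not differ beyond their spread. Htr1f was detected in 51.5% of the cells of n02-PGC-1, or 19.7% after thinning every cell to 500 UMIs, against 0.913% and 0.125% in red blood cells. Median depth was 1846 UMIs in the former and 3894 in the latter. In red blood cells the hemoglobin genes Hba-a1 and Hbb-bs were at 199183 and 390434 CPM. These left a smaller share of UMIs to all other genes, also after thinning, so this is not a matched comparison. The immature cluster n04-Immature had 4.35 ± 1.14 CPM of Htr1f, and the dopaminergic periglomerular cluster n05-PGC-2 had 32 ± 16.5 CPM.

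Htr3a, the ion channel subunit among the serotonin receptors, had a different order. Its CPM in n05-PGC-2 was 102 and 95.6 in control, 82.4 and 72.8 in naris-occluded and 47.7 and 136 in olfactory trained libraries. In n04-Immature it was 50.5 and 60.2 in control, 68.4 and 67.7 in naris-occluded and 50.2 and 63.4 in olfactory trained libraries, from 403 of its 658 UMIs. The Htr3a level was higher in n05-PGC-2 than in n04-Immature in 5 of 6 libraries, with means of 89.3 ± 29.6 and 60.1 ± 8.11 CPM, and n03-GC-1 (15.98 ± 12.7) and n02-PGC-1 (13.6 ± 11.5) were lower. Htr7, which raises cyclic AMP through stimulatory G proteins, also led in n05-PGC-2, at 29.7 ± 8.27 CPM. Htr1a, an inhibitory receptor, reached 10 CPM in the calbindin (Calb1) cluster n08-PGC-3 and in no other cluster of the second annotation. That cluster held 28 of the 114 Htr1a UMIs, in 16 to 62 cells per library, and the conditions were not tested for Htr1a there. There its CPM was 89.99 and 121 in control, 38.3 and 31.5 in naris-occluded and 11.8 and 30.7 in olfactory trained libraries, and all other neuronal clusters with at least 10 UMIs were under 6 CPM. Htr2c, which couples to phospholipase C, had 89.8 and 38.1 CPM in control, 221 and 70.2 in naris-occluded and 127 and 58.3 in olfactory trained libraries in n18-EPL-IN, a cluster named for interneurons of the external plexiform layer. These Htr2c values rest on 18 UMIs in 161 cells and spread widely, and the next cluster with at least 10 UMIs was n17-M/TC-3 at 9.95 ± 7.27 CPM. Htr5a had its highest level in n17-M/TC-3, at 34.8 ± 12.5 CPM from 54 of its 107 UMIs.

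**Figure D2:**
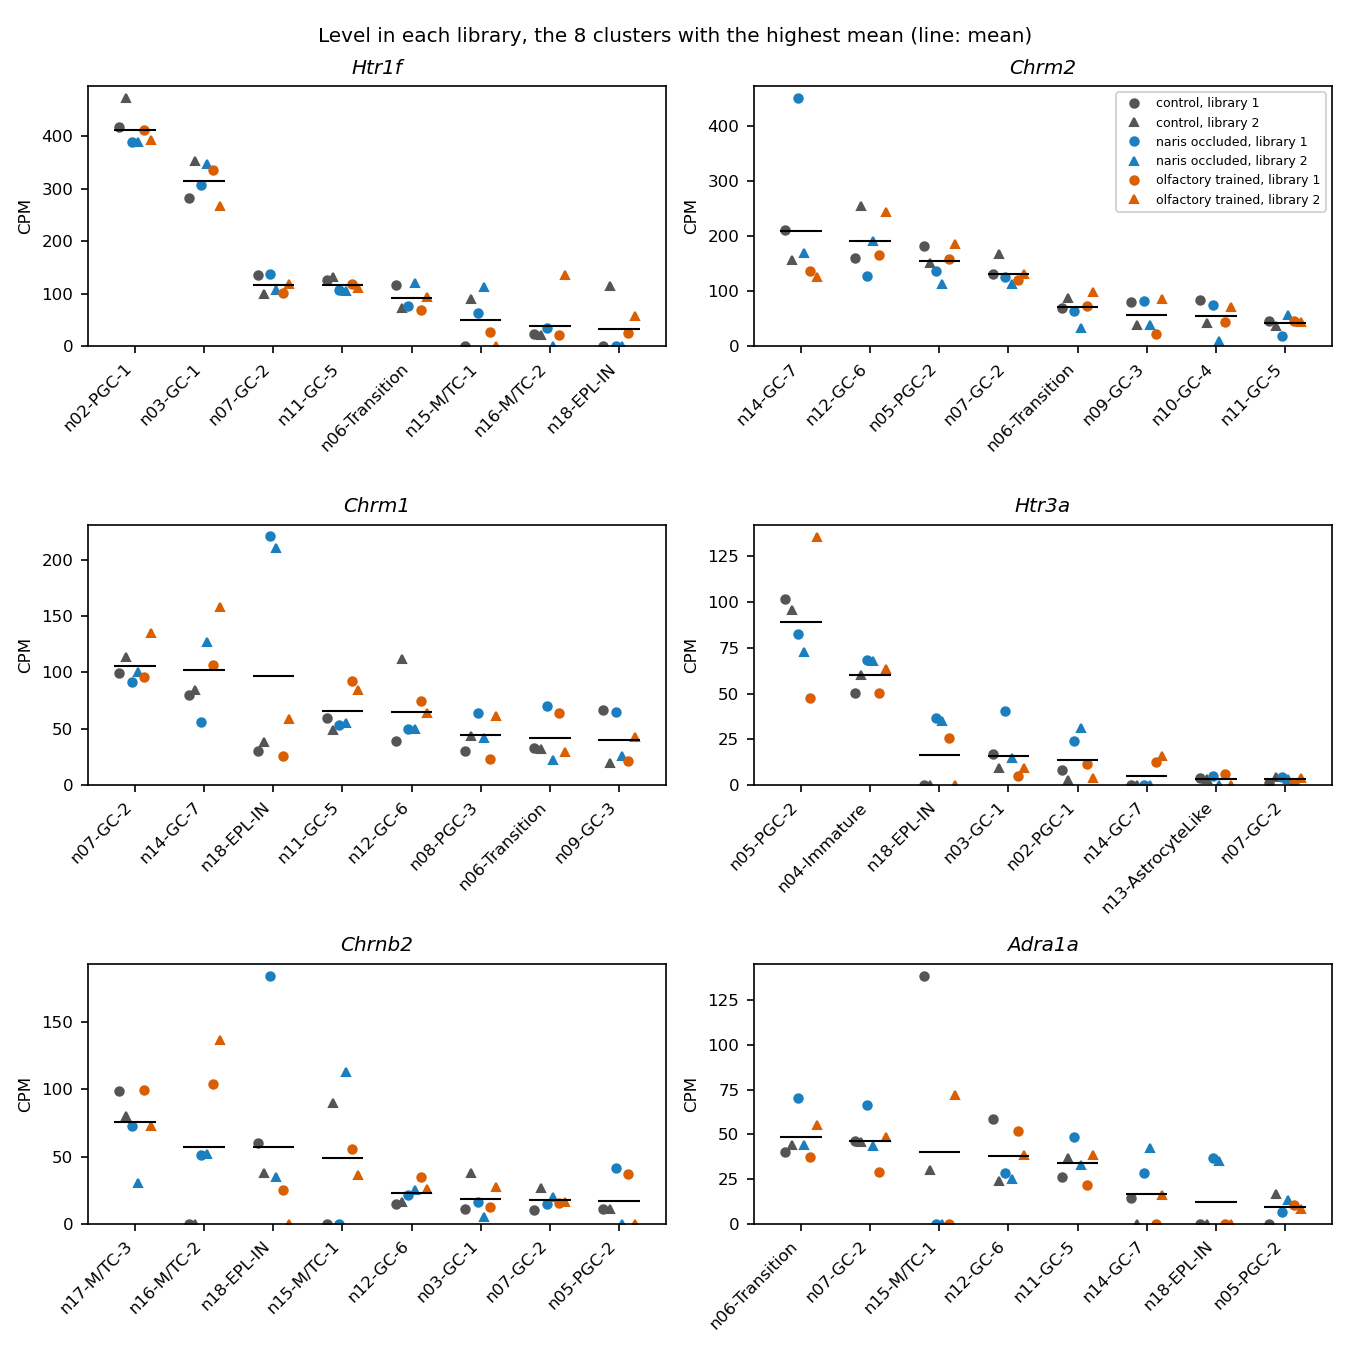
CPM of 6 receptor genes in each library, for the 8 clusters with the highest mean of each gene among neuronal clusters, with points colored by condition, circles for library 1, triangles for library 2 and a line at the mean of the 6 libraries. Htr1f in n02-PGC-1 lay between 389 and 473 CPM in every library, whereas Chrm1 in n18-EPL-IN ranged from 25.5 to 221 CPM.

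Muscarinic receptors were found in most granule cell clusters, each with its own order. Chrm1 couples to phospholipase C, as Chrm3 does, whereas Chrm2 inhibits adenylyl cyclase. Chrm2 had 211 and 157 CPM in control, 452 and 169.7 in naris-occluded and 138 and 127 in olfactory trained libraries in n14-GC-7. One value, in the male naris-occluded library, was far above the other libraries there, and that library had 38 cells in the cluster. In n12-GC-6 Chrm2 was 161 and 255 CPM in control, 127 and 192 in naris-occluded and 167 and 244 in olfactory trained libraries. The dopaminergic cluster n05-PGC-2 also held Chrm2, at 182 and 152 CPM in control, 137 and 113 in naris-occluded and 159 and 186 in olfactory trained libraries, and n07-GC-2 at 132 ± 19 CPM (SD, n = 6). Chrm2 in n14-GC-7 was above n12-GC-6 in 2 of 6 libraries, so that their order was not fixed, whereas n12-GC-6 was above n07-GC-2 in 6 of 6 and n05-PGC-2 above n07-GC-2 in 4 of 6. The calretinin clusters n02-PGC-1 and n03-GC-1, which had the highest Htr1f levels, had 4.95 ± 4.08 and 9.16 ± 4.15 CPM of Chrm2, and n04-Immature had 6.41 ± 1.65 CPM.

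Chrm1 was led by n07-GC-2, at 99.5 and 114 CPM in control, 91.7 and 100.2 in naris-occluded and 95.7 and 135 in olfactory trained libraries. Levels of Chrm1 in n14-GC-7 (102 ± 36.6 CPM) and n18-EPL-IN (97.3 ± 92.6 CPM) did not differ from it beyond their spread, and n11-GC-5 (65.7 ± 18.3 CPM) and n12-GC-6 (64.9 ± 26.2 CPM) followed. In contrast to Chrm2, the dopaminergic cluster n05-PGC-2 had a low level of Chrm1, with 6 UMIs. Chrm3 had its highest levels in 2 small granule cell clusters. In n09-GC-3 its CPM was 53.3 and 118 in control, 48.97 and 114 in naris-occluded and 65.04 and 42.6 in olfactory trained libraries, and in n10-GC-4 it was 42.5 and 69.5 in control, 120.1 and 69.7 in naris-occluded and 21.7 and 17.9 in olfactory trained libraries. The 2 ranges overlap, and each rests on 28 UMIs. Elsewhere Chrm3 reached at most 27.7 ± 19.9 CPM in a neuronal cluster with at least 10 UMIs (n06-Transition). Chrm4, an inhibitory muscarinic receptor, had 6 UMIs in all cells and was not readable at this depth.

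Nicotinic subunits differed in the cluster that led them, with Chrnb2, Chrna3 and Chrnb4 highest in mitral and tufted cells, Chrna2 in n18-EPL-IN and Chrna10 in granule cells. Chrnb2, the subunit of most nicotinic channels in the brain, reached 10 CPM in 12 of the 18 neuronal clusters and was highest in n17-M/TC-3, and the other 6 clusters had fewer than 10 UMIs of it. Its CPM there was 98.6 and 80.3 in control, 72.5 and 30.3 in naris-occluded and 99.7 and 72.6 in olfactory trained libraries, and the female naris-occluded library was the lowest. Chrnb2 in n16-M/TC-2 (57.4 ± 54.9 CPM) and n18-EPL-IN (57.1 ± 65.3 CPM) came from 11 and 10 UMIs, and neither differed from n17-M/TC-3 beyond the spread. Chrna3, the subunit whose promoter is shown first, had 21.6 and 54.96 CPM in control, 21.5 and 45.4 in naris-occluded and 49.9 and 33.02 in olfactory trained libraries in n17-M/TC-3. Chrnb4 had 27.7 and 38.05 CPM in control, 29.5 and 50.5 in naris-occluded and 38.8 and 39.6 in olfactory trained libraries in the same cluster. This cluster of 927 cells held 51 of 95 Chrna3 UMIs and 52 of 137 Chrnb4 UMIs, and it had 0 UMIs of Chrna5, the third gene of this stretch of chromosome 9, which had 3 UMIs in all. Chrna3 (chr9:55010117-55026562) and Chrna5 (chr9:54980827-55011420) overlap at their 3′ ends on opposite strands, and 1592 bases separate Chrna3 from Chrnb4. No other neuronal cluster reached 10 UMIs of Chrna3 or of Chrnb4.

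Chrna2 reached 10 UMIs in 1 neuronal cluster. In n18-EPL-IN its CPM was 29.9 and 76.1 in control, 479 and 351 in naris-occluded and 76.5 and 292 in olfactory trained libraries, from 34 of its 69 UMIs, and this was above every other neuronal cluster in all 6 libraries although the values spread from 29.9 to 479. The markers of n18-EPL-IN were mixed. Pvalb was at 64.0 CPM, and the summed GABAergic markers were at 2835 CPM. Mitral and tufted markers summed to 566 CPM, and ensheathing markers to 3722 CPM (175 to 12865 over the libraries). Chrna10, a subunit best known from the inner ear, had 30.5 and 24.9 CPM in control, 37.6 and 63.5 in naris-occluded and 31.5 and 44.96 in olfactory trained libraries in n07-GC-2 and lower levels in n06-Transition (17.2 ± 5.42 CPM) and n11-GC-5 (14.9 ± 6.33 CPM). Chrna4, a usual partner of Chrnb2, did not reach 10 CPM in a cluster of the second annotation with at least 10 UMIs of it, at 8.17 ± 11.03 CPM in n17-M/TC-3, but had 15.9 ± 26.7 CPM in the whole-bulb neuronal cluster N14. Its highest level was in oligodendrocyte precursors (OPC), at 12.7 and 39.2 CPM in control, 28.9 and 14.4 in naris-occluded and 14.2 and 39.6 in olfactory trained libraries. Chrna7, Chrna5 and Chrnb3 had 24, 3 and 3 UMIs in all, and Chrnb1, a subunit of the muscle channel, had 60, with 5.79 ± 2.13 CPM in the endothelial cluster EC1. Chrna1os had 18.5 ± 15.6 CPM in OPC and about 10 CPM in n02-PGC-1 and the astrocyte cluster Astro1.

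The dopamine receptor genes that were counted, Drd1, Drd4 and Drd5, were sparse. Drd2 and Drd3 were not among the counted genes, so these values do not describe the dopamine receptor family as a whole. Drd1, which stimulates adenylyl cyclase, reached 10 CPM in n17-M/TC-3 and in no other cluster of the second annotation with at least 10 UMIs of it, at 6.16 and 29.6 CPM in control, 16.1 and 10.1 in naris-occluded and 16.6 and 19.8 in olfactory trained libraries, from 23 of its 48 UMIs. In the whole-bulb neuronal clusters N14 and N15 it had 13.2 ± 10.7 and 12.7 ± 15.5 CPM. Drd5, of the same class, did so in n08-PGC-3, with 50 and 32.9 CPM in control, 0 and 20.98 in naris-occluded and 11.8 and 0 in olfactory trained libraries from 11 UMIs, and 2 libraries were at 0. Drd4, an inhibitory receptor, had 13 UMIs in all cells.

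Adrenergic receptors differed in the cluster that led them. Adra1a, which couples to phospholipase C, was read in granule cells. Its CPM in n06-Transition was 40.02 and 44.3 in control, 70.5 and 43.9 in naris-occluded and 37.4 and 55.5 in olfactory trained libraries. The means of n07-GC-2 (46.5 ± 11.9), n12-GC-6 (37.7 ± 14.7) and n11-GC-5 (34.01 ± 9.46) did not differ from that of n06-Transition beyond the spread. Library by library, however, n11-GC-5 was below n06-Transition in each. In CPM after normalization of the tested genes, n11-GC-5 was at 27.0 and 38.1 in control, 48.8 and 33.9 in naris-occluded and 22.6 and 38.9 in olfactory trained libraries. On that scale n06-Transition was at 44.8 and 49.6, 76.3 and 47.6, and 41.3 and 58.2. Adra1b, of the same class, was instead led by n05-PGC-2 among neuronal clusters with at least 10 UMIs of it, at 48.1 and 22.5 CPM in control, 54.96 and 39.7 in naris-occluded and 42.4 and 25.4 in olfactory trained libraries. Adra2a, an inhibitory receptor, had 26.7 and 11.3 CPM in control, 6.87 and 13.2 in naris-occluded and 21.2 and 16.9 in olfactory trained libraries in that cluster, from 16 UMIs. From fewer than 10 UMIs each, n18-EPL-IN had means of 41.7 ± 26.3 CPM of Adra1b and 16.7 ± 18.8 CPM of Adra2a, so the order was not fixed. At 10 CPM or more, n05-PGC-2 held 9 of the 37 genes, n17-M/TC-3 also held 9 and n07-GC-2 held 8, and those of n05-PGC-2 were Adra1b, Adra2a, Adrb3, Chrm2, Chrm3, Chrnb2, Htr1f, Htr3a and Htr7. These counts depend on cluster size through the rule of at least 10 UMIs. A single UMI was 0.284 CPM in n07-GC-2, 1.03 CPM in n05-PGC-2 and 5.82 CPM in n18-EPL-IN. The share of all genes passing the same rule in each cluster was not computed, so the counts do not rank the clusters. Adrb3, known best from fat tissue, had its highest neuronal level in n10-GC-4, at 33.96 and 55.6 CPM in control, 30.04 and 8.71 in naris-occluded and 0 and 0 in olfactory trained libraries from 11 UMIs.

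The second annotation left out 755 neurons of the whole-bulb clusters. In them Htr1f was at 76.8 ± 22.9 CPM, Chrm2 at 67.1 ± 31.1 CPM, Chrm1 at 39.3 ± 15.7 CPM and Adra1a at 29.99 ± 11.96 CPM.

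Receptor levels were also set between immature and more mature interneurons. Following the study's axes, n04-Immature was compared with 8 clusters of axis A (n02, n03, n05, n08, n10, n11, n12 and n14) and with 3 clusters of axis B (n06, n07 and n09), as the log2 ratio of CPM + 1 in each library. Clusters served to define both sides, so these ratios are a description. Axis A had 22 of the 37 genes with at least 10 UMIs on either side, a filter that also lets in genes that are high on 1 side alone. Of these, 12 were higher on axis A in each of the 6 libraries, against 30.6% of 14156 genes passing the same filter, and 1 was lower against 18.3%. On axis B, 10 of 17 genes were higher in each library and 1 was lower, against 34.1% and 23.3% of 13608 genes. Median log2 ratios of all these genes were 0.20 and 0.28.

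The largest ratio was that of Htr1f, with 4.35 CPM in n04 and 188 CPM on axis A, a log2 ratio of 5.17 ± 0.32. On axis B the Htr1f level was 101 CPM (log2 ratio 4.27 ± 0.36). Chrm1, Chrm2 and Chrm3 were higher on both axes in every library. The log2 ratio of Chrm2 was 2.88 ± 0.26 on axis A and 3.89 ± 0.36 on axis B, and that of Chrm1 was 2.02 ± 0.25 and 3.10 ± 0.36. Chrm3 had log2 ratios of 3.24 ± 0.97 and 3.93 ± 1.26, with the widest spread of these genes, and n04 had 7 UMIs of it. Chrna10 and Adra1a had higher ratios on axis B (4.15 ± 0.81 and 3.46 ± 0.74) than on axis A (2.14 ± 0.87 and 2.04 ± 0.81). Htr3a was the exception in the opposite direction. Its level of 60.1 CPM in n04 stood against 14.4 CPM on axis A and 2.64 CPM on axis B, log2 ratios of -2.02 ± 0.29 and -4.13 ± 0.40, and it was lower in every library on both axes. The axis A value pools unlike clusters. Of its 169 Htr3a UMIs, 84 came from n05-PGC-2, which at 89.3 CPM was above n04 in 5 of 6 libraries. By contrast, n02-PGC-1 and n03-GC-1 were below n04. Chrnb2, at 13.4 CPM in n04, had log2 ratios of 0.16 ± 0.29 and 0.17 ± 0.41, which were within their spread. Median depth was 1668 UMIs per cell in n04, 1647 on axis A and 827.5 on axis B, and the median mitochondrial share was 8.44%, 7.92% and 16.6%.

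**Figure D3:**
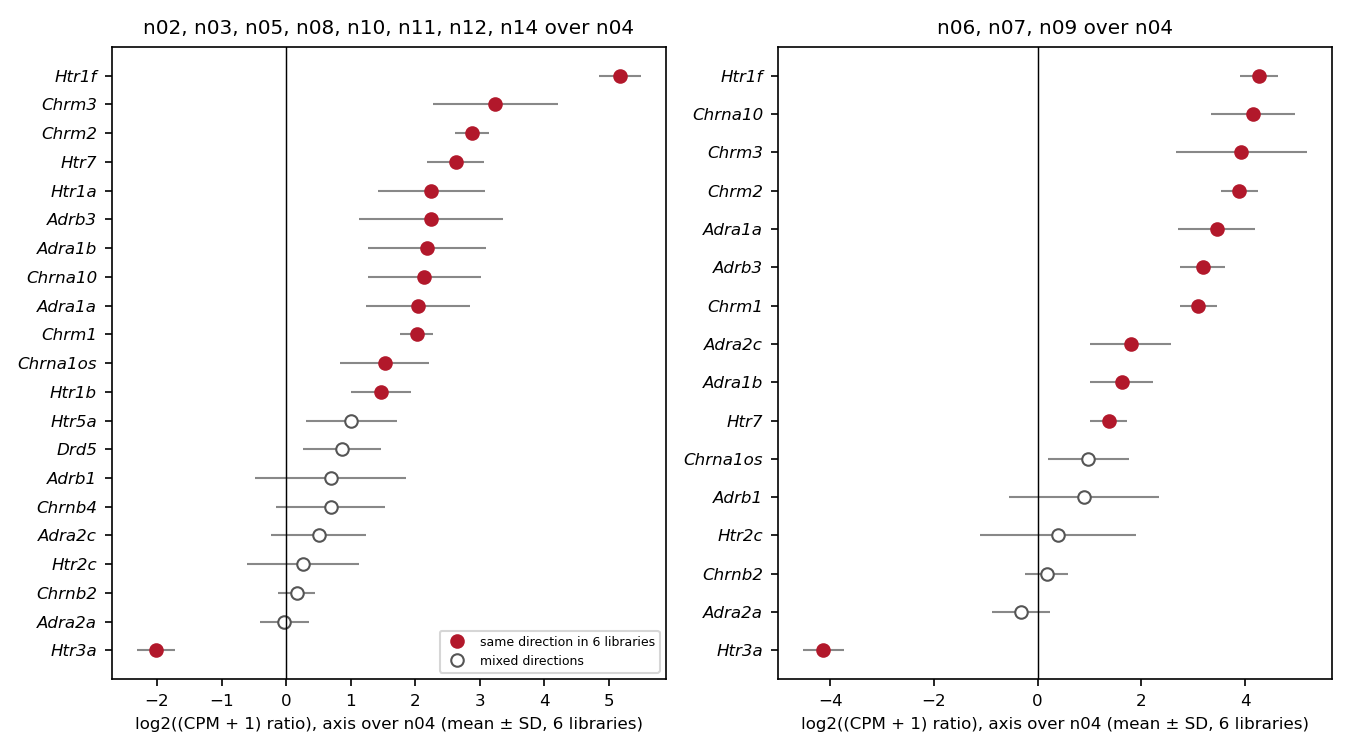
Log2 ratio of CPM + 1 of each receptor gene with at least 10 UMIs, axis A (left) and axis B (right) over n04-Immature, as mean and SD of 6 libraries, with filled points for genes with the same direction in each library. Htr3a is the filled point below 0 on both sides, and Htr1f is the highest.

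Adrenergic receptors were also read in several nonneuronal clusters. Adrb1, a beta-adrenergic receptor that raises cyclic AMP, had 17.1 and 35.4 CPM in control, 42.6 and 18.5 in naris-occluded and 34.4 and 41.4 in olfactory trained libraries in MicroG1. Its levels in MicroG1 and MicroG2 (29.4 ± 6.97 CPM) did not differ beyond their spread, and Astro1 had 10.1 ± 3.57 CPM.

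**Figure D4:**
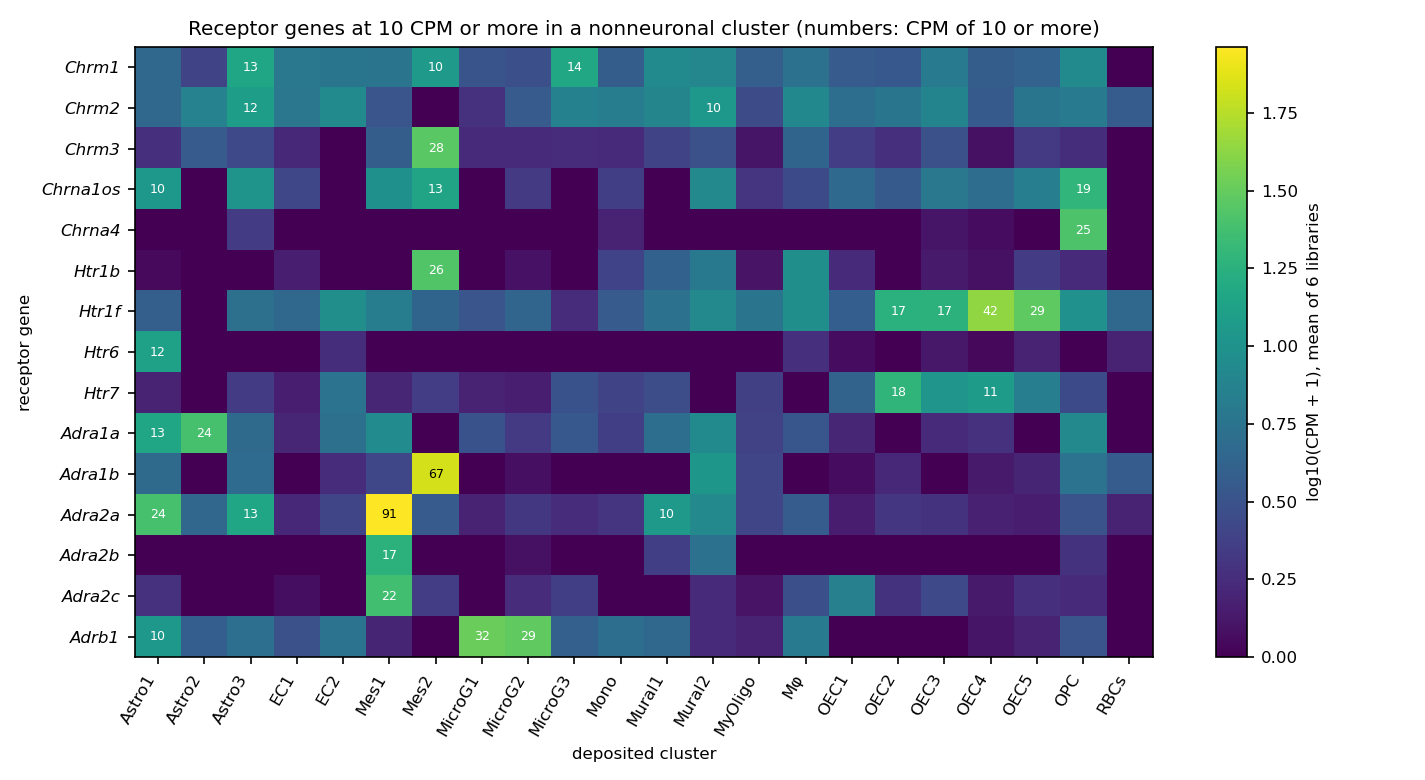
Mean level over the 6 libraries of 15 receptor genes that reached 10 CPM in a nonneuronal cluster (rows) in the nonneuronal clusters (columns), colored as log10(CPM + 1), with levels of 10 CPM or more printed, also where fewer than 10 UMIs lie behind them. The adrenergic alpha genes are highest in Mes1, Mes2 and astrocytes.

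Of the 5 alpha-adrenergic genes, 4 had their highest nonneuronal level in a mesenchymal cluster, and Adra1a had it in the astrocyte cluster Astro2. Adra2a had 62.9 and 98.6 CPM in control, 65.8 and 86.1 in naris-occluded and 141 and 89.1 in olfactory trained libraries in Mes1, above all other nonneuronal clusters in each library. In the same cluster Adra2c had 8.38 and 42.3 CPM in control, 26.3 and 26.2 in naris-occluded and 18.1 and 11.9 in olfactory trained libraries, and Adra2b, from 22 of its 33 UMIs, had 17.1 ± 12.3 CPM, so that all 3 inhibitory alpha receptors had their highest nonneuronal level there. Adra1b led in Mes2, with 74.1 and 77.3 CPM in control, 78.8 and 98.8 in naris-occluded and 33.9 and 41.3 in olfactory trained libraries. Mes2 also held the highest nonneuronal levels of the muscarinic gene Chrm3 (27.9 ± 27.7 CPM) and of the serotonin receptor Htr1b (25.9 ± 17.1 CPM), from 19 and 20 UMIs in 230 cells. The collagen and decorin markers of mesenchymal cells (Col1a1, Col1a2 and Dcn) summed to 2681 CPM in Mes1 and 968 CPM in Mes2. The neuronal clusters n07-GC-2 and n04-Immature had 3.02 ± 2.17 and 3.68 ± 0.775 CPM of Adra2a.

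Astrocytes and ensheathing cells each had a small set. Astro1 had 23.8 ± 7.96 CPM of Adra2a, 13.3 ± 4.13 CPM of Adra1a and 12.2 ± 3.57 CPM of Htr6, a serotonin receptor that raises cyclic AMP, and 74 of the 89 UMIs of Htr6 were in this cluster. In Astro2, Adra1a had 23.8 ± 15.4 CPM from 17 UMIs, with 1 library at 0. Among ensheathing cells, Htr1f was highest in OEC4, at 50 and 46.8 CPM in control, 40.4 and 46.03 in naris-occluded and 26.3 and 44.1 in olfactory trained libraries. OEC5 followed with 28.9 ± 10.5 CPM, and OEC2 and OEC3 had 16.97 ± 3.37 and 17.3 ± 11.6 CPM, whereas OEC1 had 2.83 ± 1.97 CPM. Htr7 was read in OEC2 (18.2 ± 4.74 CPM) and OEC4 (11.02 ± 2.72 CPM). Calb2, the marker of the neuronal clusters that lead Htr1f, was at 84.03 CPM in OEC4, 73.6 CPM in OEC2 and 86.5 CPM in OEC1, and the part of neuronal RNA in the ensheathing levels was not tested. The muscarinic levels of Astro3 (Chrm1 at 13.2 ± 7.14 CPM and Chrm2 at 11.6 ± 6.83 CPM) lay beside 466 CPM of the 3 GABAergic markers, against 174 CPM in Astro1, where neither gene reached 10 CPM.

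The study asked how sensory experience acts on bulb cells, so the receptor genes were compared between conditions within clusters. Counts were summed per library and cluster and tested with edgeR's quasi-likelihood test, with Benjamini-Hochberg adjustment over all genes tested in a cluster, in the 26 clusters with at least 50 cells in each library. After the filter on low counts, 16 of the 37 genes entered 48 tests per comparison, 1 of them of Chrna1os. After naris occlusion, 0 of 48 tests had an adjusted p under 0.05, against 0.0640% of 153070 tests of all genes, and 5 had an unadjusted p under 0.05, against 4.81%. DESeq2, run without that filter, called 0 of 597 tests, with 1 at an unadjusted p under 0.05. Most of these 597 were pairs too sparse for the edgeR filter, and pairs without an adjusted p were counted as not called. After olfactory training, 0 of 48 tests passed, against 0.101% of all tests, and 5 had an unadjusted p under 0.05, against 5.84%. DESeq2 called 0 of 597, with 2 at an unadjusted p under 0.05. The smallest adjusted p was 0.404 after occlusion and 0.553 after training. Both comparisons share the control libraries.

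These tests bound the size of a change in only some cases. The 95% interval of the log2 fold change lay within 1 of 0 in 19 of 48 tests after occlusion and 23 of 48 after training, against 58.9% and 56.8% of the tests of all genes. After occlusion, Htr1f had the narrowest intervals. In n03-GC-1 its log2 fold change was 0.04 (SE 0.16, 95% interval -0.29 to 0.36) after occlusion and -0.05 (SE 0.18, 95% interval -0.41 to 0.30) after training, and in n02-PGC-1 it was -0.21 (SE 0.16, 95% interval -0.53 to 0.12) and -0.16 (SE 0.16, 95% interval -0.48 to 0.16). For Htr3a in n04-Immature, the log2 fold change was 0.30 (SE 0.19, 95% interval -0.10 to 0.69) after occlusion and 0.06 (SE 0.20, 95% interval -0.36 to 0.47) after training. A change of 1 on the log2 scale lies outside each of these intervals. On simulated counts with 200 genes changed by that much after occlusion, 4.5% to 56.5% of them were called, depending on the cluster. Those genes were drawn from all genes that passed the filter, not from the receptor genes. After occlusion the median SE was 0.387 in the receptor tests and 0.323 in the tests of all genes, so these shares do not describe the receptor tests themselves.

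The tests with the smallest p-values are given by their values, in CPM after normalization of the tested genes, and none passed the adjustment. Adra2a in Astro1 was at 34.7 and 33.2 in control, 18.4 and 14.5 in naris-occluded and 20.1 and 24.1 in olfactory trained libraries, so that all 4 libraries of manipulated mice were below both control libraries. Its log2 fold change was -1.05 (SE 0.28, 95% interval -1.62 to -0.47) after occlusion (edgeR adjusted p = 0.688) and -0.64 (SE 0.27, 95% interval -1.20 to -0.07) after training (edgeR adjusted p = 0.6301), from 148 UMIs. Htr1f in OEC3 was at 11.2 and 18.3 in control, 30.6 and 33.5 in naris-occluded and 6.61 and 7.63 in olfactory trained libraries, and its log2 fold change after occlusion was 1.12 (SE 0.49, 95% interval 0.13 to 2.11), from 53 UMIs. Both naris-occluded values were above both controls. Chrm3 in n06-Transition had 7.46 and 31.9 in control, 62.4 and 47.6 in naris-occluded and 21.9 and 10.3 in olfactory trained libraries, a log2 fold change of 1.43 (SE 0.66, 95% interval 0.14 to 2.72) after occlusion from 40 UMIs, which was 0.75 without control library 1 and 2.79 without control library 2. Chrnb2 in n17-M/TC-3 had 116 and 93.2 in control, 77.9 and 33.3 in naris-occluded and 120.2 and 81.1 in olfactory trained libraries, a log2 fold change of -0.79 (SE 0.38, 95% interval -1.55 to -0.02), with the lowest value in the female naris-occluded library, and it was -0.46 without that library and -1.66 without the male one.

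After training, Chrm1 in n11-GC-5 was at 61.04 and 50.8 in control, 53.6 and 57.01 in naris-occluded and 96.95 and 86.1 in olfactory trained libraries. Both trained libraries exceeded the other 4, and the log2 fold change was 0.69 (SE 0.24, 95% interval 0.20 to 1.17) (edgeR adjusted p = 0.553), from 240 UMIs. In n07-GC-2, the cluster with the highest Chrm1 level, it was 0.07 (SE 0.21, 95% interval -0.36 to 0.49), and the difference between the 2 clusters was not tested. Chrm3 in n11-GC-5 was at 15.6 and 25.4 in control, 17.9 and 14.9 in naris-occluded and 8.08 and 8.195 in olfactory trained libraries and had a log2 fold change of -1.23 (SE 0.57, 95% interval -2.40 to -0.05) after training, with both trained values the lowest. Htr1f in OEC4 had 50.6 and 48.3 in control, 40.5 and 46.6 in naris-occluded and 26.4 and 44.5 in olfactory trained libraries and a log2 fold change of -0.50 (SE 0.24, 95% interval -0.98 to -0.01). Here the male trained library alone was far below the others, and the log2 fold change was -0.15 without it and -0.90 without the female trained library. In each of the tests given here for its small p, the male and the female library moved in the same direction against the control of the same sex. Chrm1 in n07-GC-2, given only for comparison, is not among them. The tests were picked by small p from these same libraries, which favors such agreement, so it is no independent support.

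**Figure D5:**
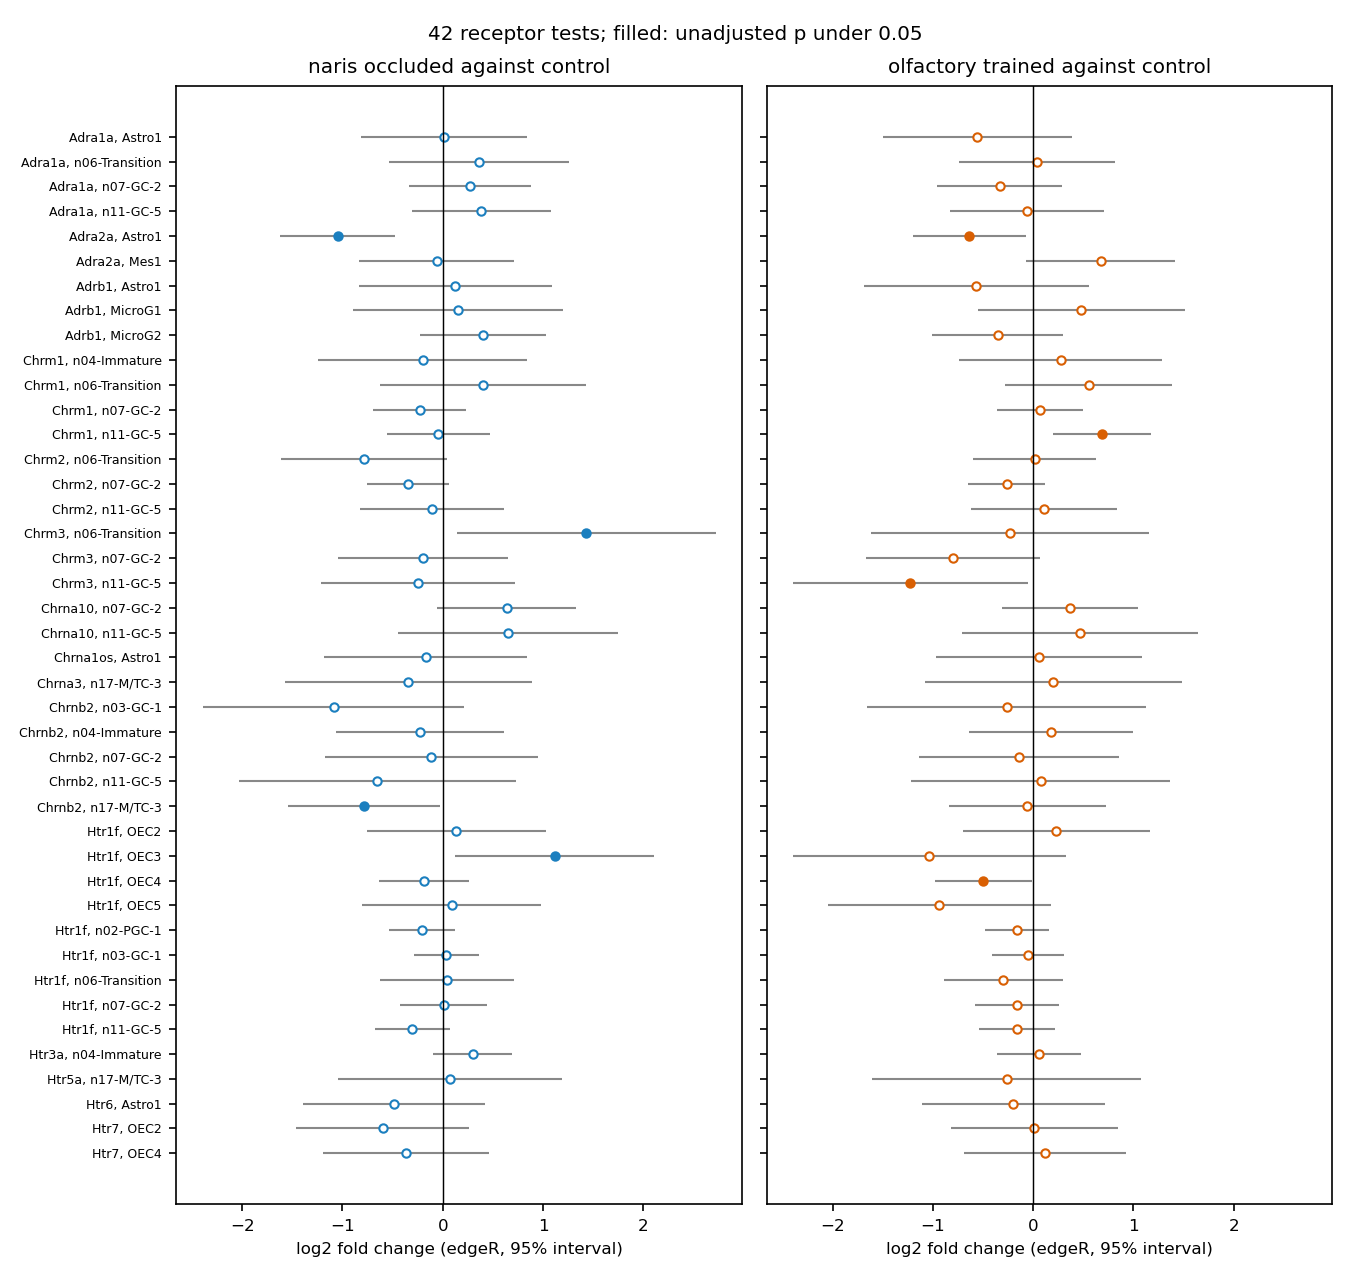
Log2 fold change with its 95% interval (edgeR) of 42 tests of receptor genes, each a gene in a cluster, for naris occluded (left) and olfactory trained (right) libraries against control, with filled points at an unadjusted p under 0.05. None of them had an adjusted p under 0.05, and the intervals of Htr1f in n02-PGC-1 and n03-GC-1 are among the narrowest.

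Genes around the receptors were tested in the same fits, in 6 lists. Monoamine synthesis, storage, uptake and breakdown gave 58 tests, acetylcholine synthesis, storage and breakdown 7, G protein alpha subunits 174, adenylyl cyclases, phospholipase C and effectors 221, receptor desensitization 129, and nicotinic receptor chaperones and prototoxins 72. After occlusion, 0 of these tests were called higher and 0 lower by edgeR, with 37 of 661 at an unadjusted p under 0.05 (5.598%, against 4.81% of the tests of all genes). After training, 0 were called higher and 0 lower, with 41 at an unadjusted p under 0.05 (6.203%, against 5.84%). By list, the tests at an unadjusted p under 0.05 after occlusion and after training were 3 and 14 of 58 for monoamine genes, 3 and 1 of 7 for acetylcholine genes, 8 and 3 of 174 for G protein subunits, 3 and 9 of 221 for cyclases and effectors, 12 and 5 of 129 for desensitization and 8 and 9 of 72 for chaperones. The monoamine tests came from 6 genes and the acetylcholine tests from 2, repeated over clusters of the same libraries, so they are not independent. DESeq2 was run on these lists without the filter on low counts. For the monoamine genes it had 3 and 6 tests at an unadjusted p under 0.05. Over all lists DESeq2 called 0 and 0, with 6 and 9 at an unadjusted p under 0.05.

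Of the 37 genes, 13 overlap another annotated gene on GRCm38.p6. Among those described, Chrm2, Chrm3, Chrna10, Chrna3, Chrnb2, Htr1b, Htr2c, Htr3a, Drd5 and Adrb3 do, and no source used here gives the strand setting of the counting, so their counts are uncertain to the extent that reads of the partner were assigned to them.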

How the data were processed

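Droplet single-cell RNA-seq was deposited as 1 table of raw UMI counts per gene and cell, with the authors' cluster labels and library of each cell. Per the labels, the submitters' processing notes name Cell Ranger 2.0.0, Seurat 2.2.1 and the mm10 build, and the authors' methods state that doublets were removed. Mitochondrial shares are medians over cells of the fraction that the authors' annotation lists per cell, computed in Seurat. No further doublet removal and no correction for free RNA were made. The start of the cell names numbers the trained libraries the other way round from the library column, and the library column was used. Counts were summed per library and cluster. Levels are CPM of all UMIs. Conditions were compared with edgeR 4.0.16 (quasi-likelihood, TMM factors, all 6 libraries in a fit, Benjamini-Hochberg adjustment, threshold 0.05) in R 4.3.3, after a filter on low counts. DESeq2 1.42.0 was an alternative and was run without that filter. The scripts were tested on simulated data. With 2 pooled libraries per condition, p-values measure the spread between these libraries. Ratios of immature to mature cells used CPM + 1. Intervals of fold changes are from the fit. Values in every library are given for the 4 genes of each family with the highest mean CPM in a cluster of at least 50 cells and 10 UMIs of the gene, where they reach 10 CPM, and the tests named are the 5 with the smallest p in each comparison, as none was called. Some results are not reported here. The members and lists were chosen with earlier results of these data known. Alternatives were other normalizations and filters, deeper cells, fewer libraries and a replicate block.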

Additional observations from a re-analysis of the deposited data

How the results depend on the processing

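The number of receptor genes at 10 CPM or more in a nonneuronal cluster, 16, fell to 10 with the control libraries only, to 10 with 20 CPM in place of 10, and to 7 where each of the 6 libraries had to reach 10 CPM. With no filter on low counts, 1 receptor test was called after training, Adrb3 in n11-GC-5 (edgeR log2 fold change -3.90, adjusted p = 0.0410), from 10, 8, 4, 2, 0 and 1 UMIs in control 1 and 2, naris-occluded 1 and 2 and trained 1 and 2. With a library left out, 0 to 0 receptor tests were called in either comparison. With a replicate block, 0 tests were called in both comparisons. Libraries of the same number share the sex of the mice, and the labels do not say whether they share anything else. The correlation of their deviations had medians over clusters of 0.0983 (control with naris occluded), 0.0980 (control with trained) and 0.0641 (naris occluded with trained), with a lowest value of -0.279 in MicroG3. All 147 alternative values of the 10 tests with the smallest p kept their sign and side of the threshold. These tests were picked by p from the same libraries that the alternatives reuse, so this is no independent support. DESeq2 gave no adjusted p for Chrnb2 in n17-M/TC-3 after occlusion, which was counted as not passing. Htr1f in OEC3 and Chrm3 in n06-Transition after occlusion and Chrm3 in n11-GC-5 after training had 14 alternative values, and the others had 15. Most genes were too sparse to test: 48 of 962 pairs of gene and cluster passed the filter on low counts.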
